A study of Mus musculus with 24 samples.

Results

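The comparison described here sets wild type (WT, Pld4+/+) mouse kidney at day 10 of unilateral ureteral obstruction (UUO) against WT kidney at day 5. It holds 8 libraries of 24, 4 at each day, chosen by their labels alone, and is described across the 15080 genes that passed a low-count filter out of 23955. In UUO the ureter of one kidney is tied, and the blocked kidney loses tubules and scars. All 8 libraries share the Pld4+/+ genotype and the surgery, and day is what separates the groups. The other 16 libraries of the series are WT kidneys at day 0 with no obstruction and Pld4-/- (KO) kidneys at days 0, 5 and 10. The labels give tissue, genotype, treatment and day. They do not say whether each library is a separate animal, so a p-value here measures the spread between libraries, which may be partly technical. That spread is pooled over all 6 groups of the series, not taken from these 8 libraries alone. Whole tissue was sequenced, so more cells of a type and more RNA per cell cannot be told apart in any result below.

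Urinary obstruction stretches and injures the tubular epithelium, which lowers its transport and mitochondrial genes and releases chemokines. Monocytes, macrophages and lymphocytes enter the tissue, and fibroblasts and pericytes become myofibroblasts that lay down collagen. Neutrophils are short-lived leukocytes that follow chemokines of the Cxcl1, Cxcl2, Cxcl3 and Cxcl5 type, carry their receptor Cxcr2, and store antimicrobial proteins in granules.

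Total counts ran from 12455355 to 22542866 in these 8 libraries. The first principal component of the 8 held 65.3% of the variance and placed day 10 replicates 2 and 3 (118.2 and 92.1) far from all others, which ran from -53.8 to -7.96. The correlation of log2 CPM (counts scaled to library size with TMM factors) was 0.959 between day 10 replicates 2 and 3, and 0.846 to 0.909 between either of them and day 10 replicates 1 and 4. Day 10 replicate 4 correlated with day 5 replicates 1 and 4 at 0.983 and 0.982. Day 10 thus held 2 libraries near day 5 and 2 far from it, and results below are given with all 8 libraries and without day 10 replicates 2 and 3, called the reduced set. Kidney markers were present in all 8 libraries, with Umod at 111 to 3744 CPM and Lrp2 at 69.2 to 1088 CPM. Markers of adipocytes, muscle and adrenal gland summed to 3.42 to 10.3 CPM, and 4 Y-linked genes were present in all 8 libraries with Xist at 1 to 6 counts. The list of nuclear-retained RNAs and splicing genes, taken as a sign of RNA quality, averaged 7.4, 7.15, 7.65 and 5.78 log2 CPM in day 5 replicates 1 to 4 and 7.37, 7.14, 7.33 and 6.81 in day 10 replicates 1 to 4. Day 5 replicate 4 was the lowest of the 8 on that list and also lay apart on the second component.

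**Figure D1:**
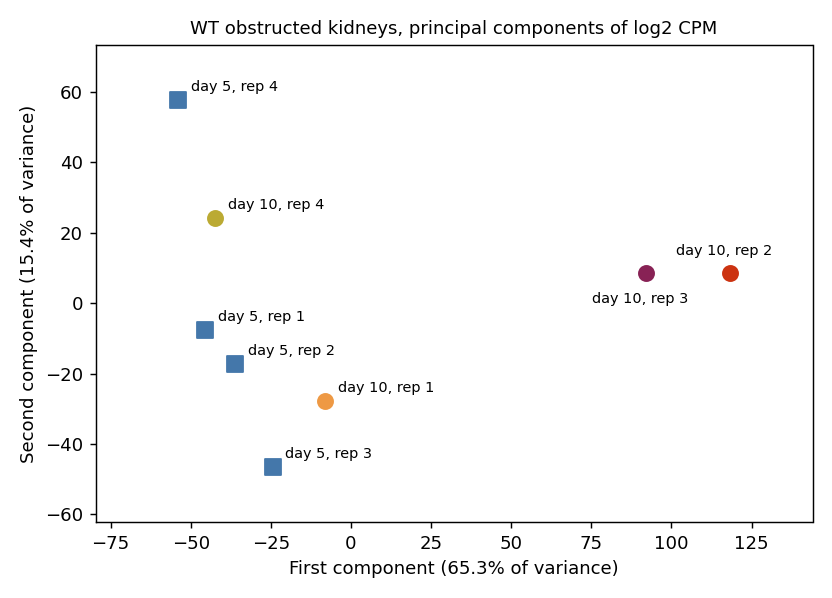
First and second principal components of log2 CPM over 15080 genes in the 8 WT obstruction libraries, squares for day 5 and circles for day 10. Day 10 replicates 2 and 3 sit at 118.2 and 92.1 on the first component, and the other 6 libraries at -53.8 to -7.96.

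Pld4, the gene labelled -/- in the KO arm of the study, codes for a lysosomal 5' exonuclease. It stood at 50.9, 47.6, 48.1 and 46.5 CPM in day 5 replicates 1 to 4 and at 68.7, 85.2, 117 and 54.6 CPM in day 10 replicates 1 to 4. All 4 day 10 libraries lay above all 4 day 5 libraries, but the difference of 0.76 ± 0.26 (log2, ± SE) missed the threshold (adjusted p = 0.0689), and it was 0.34 in the reduced set. In the KO libraries Pld4 ran from 13.4 to 32.6 CPM at day 5 and from 24.3 to 50.2 CPM at day 10, so the transcript was not absent there. Of the 5 tested genes of the phospholipase D family none passed (median 0.20, and 0.22 in the reduced set).

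Of 15080 genes, 1628 (10.8%) differed between day 10 and day 5 at an adjusted p under 0.05, 1186 (7.86%) higher and 442 (2.93%) lower at day 10. The median change over all genes was 0.02 on the log2 scale. In 519 genes (3.44%) all 4 day 10 libraries stood above all 4 day 5 libraries, and in 409 (2.71%) below. The count rests on a spread shared with the other 4 groups of the series, since an edgeR fit of the 8 libraries alone called 0 genes (1935 at an unadjusted p under 0.05). In the reduced set edgeR called 0 genes (838, or 5.56%, at an unadjusted p under 0.05). Leaving out day 10 replicate 2 gave 439 genes and replicate 3 gave 359, whereas leaving out replicate 1 gave 2697 and replicate 4 gave 4489. In the order of replicates 1 to 4, 1732, 387, 325 and 2188 of these were higher and 965, 52, 34 and 2301 lower. Without day 5 replicates 1 to 4 in turn the counts were 810, 718, 896 and 1648 (599, 565, 692 and 1136 higher). Counts in the lists below are to be read against these counts and shares over all genes. On log2(FPKM + 1) limma called 645 genes higher and 793 lower, so the split of 72.9% higher seen with counts was 44.9% on that scale.

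The genes past the threshold were not spread evenly over the 4 day 10 libraries. Genes called higher had a median excess over the day 5 mean of 0.41, 1.75, 1.88 and 0.22 (log2 CPM) in day 10 replicates 1 to 4. In 1059 of 1186 of them replicates 2 and 3 were the highest pair of the 8 libraries, and 360 had replicates 1 and 4 both above every day 5 library. Genes called lower had medians of -0.45, -1.04, -0.97 and -0.24. Of these 442 genes, 233 had replicates 1 and 4 both below every day 5 library, and 0 changed sign in the reduced set, against 107 of the 1186 higher genes. A difference of at least 2-fold was seen in 803 of the higher and 75 of the lower genes, and in 109 and 22 of them in the reduced set. These counts describe genes picked by the test on the same libraries.

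**Figure D2:**
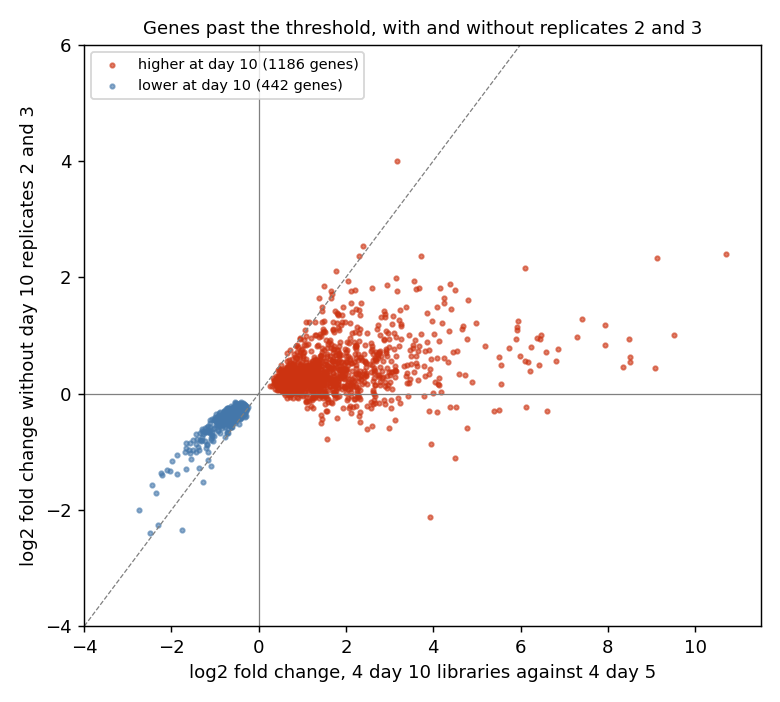
Each point is 1 gene past the threshold, with its log2 fold change (day 10 against day 5) from all 8 libraries on the x axis and without day 10 replicates 2 and 3 on the y axis. The dashed line marks equal values, the 1186 higher genes reach 10.70 on the x axis and 2.40 at that point on the y axis, and the 442 lower genes lie closer to the line.

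Neutrophil genes had the highest median change of the 44 lists. Of 22 listed genes, 12 passed the low-count filter and 11 of these were higher at day 10 (median 6.71 over the 12, and 0.59 in the reduced set, against 0.02 and -0.0046 over all genes). Over all genes tested 7.86% were called higher. Of the list 11, 11, 11 and 11 passed without day 10 replicates 1 to 4 in turn. A gene needed counts in at least 4 of the 24 libraries to be tested, so genes confined to replicates 2 and 3 could not enter. Csf3r, the receptor for granulocyte colony-stimulating factor, stood at 10.9, 10.8, 8.77 and 6.95 CPM in day 5 replicates 1 to 4 and at 18.6, 289, 496 and 12.5 CPM in day 10 replicates 1 to 4. It was higher by 4.45 ± 0.76 (adjusted p = 0.00425), and by 0.72 in the reduced set. Cxcr2, the chemokine receptor that draws neutrophils out of blood, was at 0.356 to 0.954 CPM at day 5 and at 1.09, 134, 139.5 and 1.27 CPM in day 10 replicates 1 to 4. Ltf, the granule protein lactoferrin, was at 0.521, 242, 138 and 0.264 CPM in the same libraries (8.52 ± 1.45), and Mmp8, neutrophil collagenase, at 0.521, 184, 175 and 0.793 CPM (7.94 ± 1.33). The other 6 libraries held at most 0.793 CPM of either.

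Several defining neutrophil genes stayed under the filter and stood above 1 CPM in replicates 2 and 3 alone, or in replicate 3 alone. These and the other untested genes below were named after their values were seen. Retnlg, a resistin-like gene of mature neutrophils, stood at 0.297, 0.531, 0.207 and 0.591 CPM in day 5 replicates 1 to 4 and at 0.0948, 336, 289 and 0.635 CPM in day 10 replicates 1 to 4. Ngp, a granule gene of maturing neutrophils, was at 0, 7.85, 36.8 and 0 CPM in day 10 replicates 1 to 4, and Camp, the gene of cathelicidin, at 0.0474, 0.81, 12.4 and 0.106 CPM. Both were higher in replicate 3 than in replicate 2. Elane, neutrophil elastase, stayed below 1 CPM in every library and gave 3 counts in replicate 2, 12 in replicate 3 and 0 in the other 6 libraries. Summed over the list, neutrophil genes came to 4657 CPM in day 10 replicate 2 and 7569 CPM in replicate 3, against 19.8 to 38 CPM in the other 6 libraries. In all, 73 genes left out by the filter stood at 1 CPM or more in both of those libraries. All 73 were under 1 CPM in the other 6, but this follows largely from the filter. It drops genes with enough counts in fewer than 4 of the 24 libraries, and no count was made for another pair of libraries. With no filter, 79 genes outside the tested set passed, 76 of them higher at day 10.

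Among neutrophil chemokines and growth factors 5 of 6 tested rose (median 5.72, and 1.36 in the reduced set), and 5, 3, 5 and 6 passed without day 10 replicates 1 to 4 in turn. Cxcl5, made by epithelium, stood at 5.88, 2.89, 4.14 and 3.41 CPM in day 5 replicates 1 to 4 and at 24.4, 699, 381 and 12.4 CPM in day 10 replicates 1 to 4. It rose by 6.10 ± 0.93 (adjusted p = 0.00425), and replicates 1 and 4 also lay above every day 5 library (2.16 without the other pair). Cxcl3 was at 0.118 to 0.364 CPM at day 5 and at 1.52, 432, 116 and 0.952 CPM at day 10 (9.12 ± 1.43, and 2.33 in the reduced set). Cxcl2 (5.54 ± 1.03) overlapped day 5 in replicates 1 and 4, at 10.7, 724, 497 and 8.36 CPM in day 10 replicates 1 to 4 against 2.09 to 10.8 CPM. Ppbp, a platelet chemokine gene of the same chromosomal cluster, differed by 4.50 ± 0.94, with 8.72, 110.5, 6.37 and 0.952 CPM, and was highest in replicate 2. The fifth was Csf3, granulocyte colony-stimulating factor (5.89 ± 1.35, named after its value was seen), at 0.616, 35.4, 10.4 and 0.106 CPM. Cxcl1 did not pass (1.16 ± 0.46, adjusted p = 0.108), at 54.3, 129, 156 and 51.4 CPM against 14.9 to 81.6 CPM at day 5. Il17a, a T cell cytokine that induces these chemokines, was not tested, with 0, 5.37, 6.07 and 0 CPM at day 10 and at most 0.059 CPM at day 5.

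Cxcl2 and Cxcl3 lie near each other on chromosome 5 and rose together, so their promoters are shown, from 250 bases before to 50 bases after the RefSeq transcription start (build GRCm38.p6, plus strand, Cxcl2 at chr5:90903649-90903948 and Cxcl3 at chr5:90785851-90786150). Capitals mark matches to an NF-kB type motif (GGG, any 2 bases, then TTTCC) and to TATAAA, searched on both strands together with TGANTCA (AP-1), and no 2 matches overlapped.
Cxcl2: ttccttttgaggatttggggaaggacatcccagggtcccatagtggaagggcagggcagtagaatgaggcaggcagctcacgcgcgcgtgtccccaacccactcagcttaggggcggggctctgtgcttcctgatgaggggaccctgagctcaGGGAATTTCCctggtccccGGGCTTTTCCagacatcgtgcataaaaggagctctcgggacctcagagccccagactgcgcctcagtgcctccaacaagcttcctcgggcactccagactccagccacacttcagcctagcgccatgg
Cxcl3: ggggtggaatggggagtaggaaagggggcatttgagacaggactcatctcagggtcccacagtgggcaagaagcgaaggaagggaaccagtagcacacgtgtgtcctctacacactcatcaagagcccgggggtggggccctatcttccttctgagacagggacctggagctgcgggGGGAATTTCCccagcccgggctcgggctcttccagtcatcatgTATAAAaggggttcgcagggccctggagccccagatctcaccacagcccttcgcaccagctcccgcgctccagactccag
Cxcl2 held 2 matches to the NF-kB type motif, at -97 to -88 and -78 to -69 from the start, and Cxcl3 held 1, at -73 to -64, with TATAAA at -30 to -25. The NF-kB type motif was found in 1.63% of all 32851 promoters in the table, TGANTCA in 7.81% and TATAAA in 13.6%. In promoters of tested genes the shares of these 3 motifs were 1.75%, 5.67% and 7.79%. In those of genes higher at day 10 they were 4%, 9.69% and 10.5%, and in those of genes lower 1.86%, 6.76% and 7.23%. All 3 shares were larger among the higher genes than among all tested, and the first 2 also among the lower genes. The shares count promoters (1125 for 880 higher genes), and the differences were not tested. A match is a run of letters and shows no binding.

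Of the monocyte and macrophage genes 22 of 24 tested rose (median 1.62, and 0.28 in the reduced set), and 22, 10, 9 and 22 passed without day 10 replicates 1 to 4 in turn (15, 14, 15 and 17 without day 5 replicates 1 to 4). Lyz2, the lysozyme of macrophages and neutrophils, stood at 273, 326, 198 and 241 CPM in day 5 replicates 1 to 4 and at 520.0, 2713, 5419 and 501 CPM in day 10 replicates 1 to 4. It rose by 3.15 ± 0.54 (adjusted p = 0.00425) and by 0.97 in the reduced set, with all 4 day 10 libraries above day 5. The scavenger receptor Msr1 (3.40 ± 0.64), the integrin Itgam (3.01 ± 0.58) and the endotoxin co-receptor Cd14 (2.86 ± 0.57) were higher too, but at 0.35, 0.33 and 0.29 in the reduced set. Lyz1 was the exception to that order. It stood at 0.364 to 1.42 CPM at day 5 and at 6.25, 2.73, 5.41 and 3.91 CPM in day 10 replicates 1 to 4, lowest of the 4 in replicate 2 (2.40 ± 0.49, and 2.54 in the reduced set). Lyz1 and Lyz2 are close copies, so reads may be split between them. The summed macrophage list ran from 21470 to 30480 CPM at day 5 and from 19030 to 34970 CPM at day 10, so its summed level overlapped between the days.

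Of the macrophage activation genes 11 of 15 were higher (median 5.72, and 0.78 in the reduced set), and 12, 9, 9 and 12 passed without day 10 replicates 1 to 4 in turn. Arg1, arginase 1, stood at 0.178, 0.118, 0.276 and 0.5 CPM in day 5 replicates 1 to 4 and at 1.9, 1257, 650.2 and 1.11 CPM in day 10 replicates 1 to 4. The day 5 values rest on 20 counts in all. Arg1 rose by 10.70 ± 1.74 (adjusted p = 0.00425), and replicates 1 and 4 also lay above every day 5 library (2.40 without the other pair). Irg1, which makes the antimicrobial metabolite itaconate, was at 0.118 to 0.455 CPM at day 5 and 0.521, 258, 625 and 0.688 CPM at day 10 (9.52 ± 1.74, and 1.01 in the reduced set). Replicate 3 held more Irg1 than replicate 2, and replicate 2 more Arg1 than replicate 3. The C-type lectins Clec4e (8.48 ± 1.41) and Clec4d (7.95 ± 1.29), which sense microbial glycolipids and dead cells, stood highest in replicate 3, at 453 and 397 CPM. Chil3, a chitinase-like protein of alternatively activated macrophages, rose by 9.07 ± 1.58, at 0.0948, 607, 344 and 1.11 CPM in day 10 replicates 1 to 4, and replicate 1 lay below every day 5 library. Saa3, an acute phase apolipoprotein, was not tested. It went from at most 0.5 CPM at day 5 to 0.379, 578, 4871 and 0.317 CPM in day 10 replicates 1 to 4, and with no filter it differed by 11.57 ± 2.05 (adjusted p = 0.00686).

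Of the cytokines, 13 of 22 genes of the interleukin 1, interleukin 6 and TNF families were higher (median 1.63, and 0.24 in the reduced set), and 16, 8, 9 and 20 passed without day 10 replicates 1 to 4 in turn. Il1b, the fever cytokine interleukin 1 beta, stood at 1.37, 2.6, 2 and 2.36 CPM in day 5 replicates 1 to 4 and at 6.87, 667, 749 and 3.33 CPM in day 10 replicates 1 to 4. It rose by 7.42 ± 1.24, and its decoy receptor Il1r2 by 6.11 ± 1.03, with 1.28 and 0.57 in the reduced set. Il1a, its sister cytokine, was not tested, at 0.332, 58.5, 91.4 and 0.106 CPM at day 10 and at most 0.0691 CPM at day 5. Tnf, tumour necrosis factor, was at 0.545 to 1.52 CPM at day 5 and 3.08, 14, 78.4 and 2.38 CPM at day 10 (4.79 ± 0.86), so replicate 3 stood above replicate 2 and both above the rest. Osm, oncostatin M of the interleukin 6 family, was at 0.758, 73.5, 48.4 and 0.317 CPM (6.21 ± 1.13), with replicate 4 inside the day 5 range of 0.182 to 0.531 CPM and replicate 1 just above it. Among chemokines for monocytes and lymphocytes 11 of 20 were higher (median 1.79, and 0.47 in the reduced set), and 12, 10, 6 and 15 passed without day 10 replicates 1 to 4 in turn. Ccl4 and Ccl3 rose by 6.37 ± 1.08 and 6.42 ± 1.13, Ccl6 by 3.20 ± 0.56 and Ccl7, which recruits monocytes through Ccr2, by 3.06 ± 0.56. Ccl7 was also above day 5 in replicates 1 and 4, at 10.1, 41, 62.3 and 6.72 CPM against 2.23 to 5.04 CPM.

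Day 10 replicates 2 and 3 were not alike in their lymphocyte and interferon genes. Replicate 3 was the highest of the 8 libraries in 21 of 23 T cell and cytotoxic genes, 13 of 13 interferon gamma induced GTPases, 24 of 24 type I interferon response genes and 8 of 10 MHC class II genes, while over all tested genes it was highest in 16.6%. Replicate 2 was highest in none of these and lowest in 9 of the MHC class II genes. Gbp4, a GTPase that acts against intracellular microbes, stood at 17.8, 15.6, 25.4 and 18.8 CPM in day 5 replicates 1 to 4 and at 24.4, 25, 273 and 20.2 CPM in day 10 replicates 1 to 4. Gbp4 passed at 2.15 ± 0.61 (adjusted p = 0.0291) with replicate 3 alone outside the day 5 range, and stood at 0.19 in the reduced set. Gbp5 (2.04 ± 0.64), Tgtp2 (2.15 ± 0.67) and Gm4951 (1.76 ± 0.54) also passed, each highest in replicate 3, at 269, 87.1 and 50 CPM. Gbp5 and Tgtp2 were at -0.07 and -0.23 in the reduced set. Of the 13 GTPases 4 passed (median 1.75, and -0.20 in the reduced set), and 7, 2, 0 and 9 passed without day 10 replicates 1 to 4 in turn (0, 0, 0 and 1 without day 5 replicates 1 to 4). With a block for the replicate number none of Gbp4, Gbp5, Tgtp2 and Gm4951 passed (adjusted p = 0.0654, 0.105, 0.0918 and 0.0823). The type I interferon list held 0 genes past the threshold (median 0.22, and -0.22 in the reduced set), while 3, 0, 0 and 4 passed without day 10 replicates 1 to 4 in turn. Its mean was 4.85, 4.52, 4.89 and 4.54 log2 CPM at day 5 and 4.54, 4.39, 6.01 and 4.34 at day 10.

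Of the T cell and cytotoxic genes 8 of 23 passed as higher (median 1.38, and 0.32 in the reduced set), and 4 with the replicate block. Of the list 14, 7, 0 and 12 passed without day 10 replicates 1 to 4 in turn (2, 5, 4 and 3 without day 5 replicates 1 to 4). Cd3d, a chain of the T cell receptor complex, stood at 1.49, 3.01, 2.49 and 0.818 CPM in day 5 replicates 1 to 4 and at 2.79, 3.04, 22.7 and 3.33 CPM in day 10 replicates 1 to 4. Replicates 2 and 4 lay just above the highest day 5 library and replicate 3 far above every other. Ctla4 and Icos, receptors of activated and regulatory T cells, differed by 3.68 ± 0.91 and 2.98 ± 0.72, and Il2ra, the interleukin 2 receptor alpha chain, by 2.42 ± 0.53. These 3 were above the day 5 range in replicate 2 as well, at 5.82, 5.06 and 7.49 CPM, against 20.9, 20.7 and 9.49 CPM in replicate 3. Summed T cell genes came to 272 CPM in replicate 3 and 64.4 CPM in replicate 2, and day 5 ran from 33.9 to 60.1 CPM. Neutrophil and macrophage genes were also high in replicate 3, and their part in these values was not tested. Of 13 B and plasma cell genes 1 passed, Sdc1 (1.92 ± 0.40), a syndecan that epithelium also makes (median 0.45, and 0.02 in the reduced set), and 2, 1, 1 and 3 passed without day 10 replicates 1 to 4 in turn. The count of 1 in 13 lies near the 7.86% of all genes called higher.

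Of the dendritic cell genes 3 of 15 were higher (median 0.22, and 0.30 in the reduced set), all 3 above day 5 in replicates 1, 3 and 4. In 1 of the 3 replicate 2 lay above day 5 as well. Positive values were seen in 10 of the 15 listed genes, and 7.86% of all genes were called higher. The list mean was 2.92, 1.92, 2.3 and 2.57 log2 CPM in day 10 replicates 1 to 4, against 2.13 to 2.46 at day 5. Of the list 4, 2, 0 and 4 passed without day 10 replicates 1 to 4 in turn (2, 1, 3 and 2 without day 5 replicates 1 to 4). Ccr7, the receptor that takes dendritic cells to lymph nodes, was at 1.77 to 2.97 CPM at day 5 and 4.17, 6.28, 4.68 and 4.34 CPM at day 10 (1.04 ± 0.28, adjusted p = 0.0242), with all 4 day 10 libraries above day 5. Il12b, a subunit of interleukin 12, went from 9 counts over day 5 to 50 over day 10 (2.30 ± 0.53, and 2.37 in the reduced set), and was lowest in replicate 2 at 0.203 CPM. The integrin Itgax (0.98 ± 0.25) was also lowest in replicate 2, at 33.5, 21, 69.7 and 36.8 CPM. MHC class II genes held 0 of 10 past the threshold (median 0.01, and 0.10 in the reduced set). Mast cell, basophil and eosinophil genes, with 3 tested, held 0 (median 0.07, and 0.64 in the reduced set). Complement genes held 3 of 19 higher (median 0.56, and 0.02 in the reduced set), properdin (Cfp, 2.35 ± 0.48) and the anaphylatoxin receptors C5ar1 (2.62 ± 0.56) and C3ar1 (1.6 ± 0.33), which myeloid cells carry. Of the list 5, 3, 2 and 7 passed without day 10 replicates 1 to 4 in turn.

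**Figure D3:**
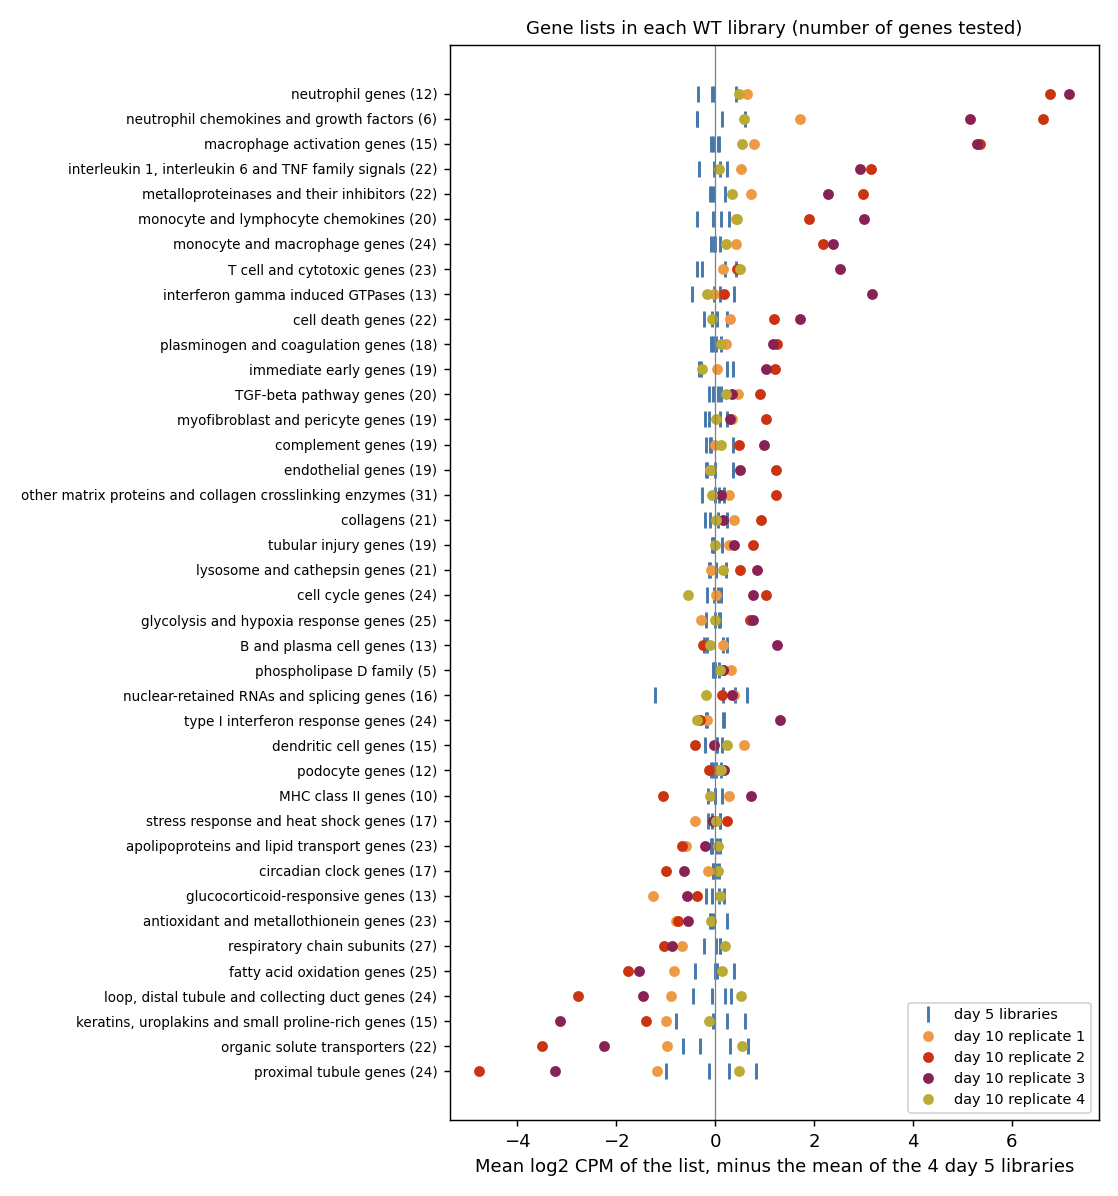
Mean log2 CPM of each list with at least 5 tested genes (number in parentheses), minus its mean over the 4 day 5 libraries; blue ticks are the day 5 libraries and circles the 4 day 10 libraries. Day 10 replicates 2 and 3 lie apart together for neutrophil and proximal tubule genes, and replicate 3 alone for interferon gamma induced GTPases.

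For matrix genes the order of replicates 2 and 3 was turned. Replicate 2 was the highest of 8 libraries in 14 of 21 collagens, 24 of 31 other matrix and crosslinking genes and 12 of 19 myofibroblast and pericyte genes, against 19.2% of all genes, and replicate 3 in 0, 1 and 2. Col1a1, the main chain of fibrillar collagen I, stood at 318, 456, 435 and 728 CPM in day 5 replicates 1 to 4 and at 779, 2855, 1237 and 387 CPM in day 10 replicates 1 to 4. It passed at 1.45 ± 0.42 (adjusted p = 0.0338, and 0.0543 with the replicate block), and stood at 0.26 in the reduced set. Replicate 4 lay inside the day 5 range. Col3a1 missed the threshold (1.21 ± 0.44, adjusted p = 0.0796), with 1199, 4970, 1615 and 616 CPM in day 10 replicates 1 to 4 and 646 to 1116 CPM at day 5. Of the collagens 5 of 21 were higher (median 0.43, and 0.13 in the reduced set), and 3 with the block. Of the list 5, 0, 2 and 9 passed without day 10 replicates 1 to 4 in turn (0, 1, 0 and 3 without day 5 replicates 1 to 4).

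Col12a1, a collagen that sits on fibril surfaces, was of like size in both sets (0.95 ± 0.26, and 0.96 in the reduced set). Its day 10 libraries, at 284, 248, 151 and 126 CPM, were led by replicate 1 and did not overlap 87.2 to 125 CPM at day 5. Col5a2 differed by 1.40 ± 0.37 and Col5a3 by 1.85 ± 0.55, the latter at -0.05 in the reduced set (adjusted p = 0.0746 with the block). The fifth collagen past the threshold was Col5a1 (1.29 ± 0.39, adjusted p = 0.0626 with the block, named after its value was seen). Of the other matrix genes 8 of 31 were higher and 1 lower (median 0.47, and 0.05 in the reduced set). The 1 lower in 31 lies near the 2.93% of all genes called lower. As higher 12, 1, 5 and 16 passed without day 10 replicates 1 to 4 in turn (2, 4, 5 and 7 without day 5 replicates 1 to 4). As lower 3, 1, 1 and 2 passed without day 10 replicates 1 to 4 in turn. Tnc, tenascin C of wounded tissue, was at 43.5 to 72.5 CPM at day 5 and 197, 1195, 98.2 and 71.5 CPM at day 10 (2.73 ± 0.68), led by replicate 2 and then replicate 1. Fbln2 (2.70 ± 0.56), an elastic fibre protein, and P4ha3 (1.91 ± 0.47), a collagen prolyl hydroxylase subunit, had no overlap between the days. Fibronectin (Fn1) stood at 257, 446, 284 and 470.3 CPM in day 5 replicates 1 to 4 and at 486, 1805, 712 and 315 CPM in day 10 replicates 1 to 4 (1.19 ± 0.38, adjusted p = 0.0458). Fbln5, which assembles elastic fibres, was the member that fell. It was at 253 to 404 CPM at day 5 and 158, 82, 60.4 and 174 CPM at day 10 (-1.39 ± 0.27, and -0.92 in the reduced set), below day 5 in all 4 libraries.

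Of the myofibroblast and pericyte genes 5 of 19 were higher (median 0.50, and 0.10 in the reduced set), and 4, 0, 0 and 6 passed without day 10 replicates 1 to 4 in turn (1, 1, 2 and 2 without day 5 replicates 1 to 4). Acta2, the smooth muscle actin that marks myofibroblasts, did not pass (0.50 ± 0.36, adjusted p = 0.369). It stood at 113, 180.5, 102 and 194 CPM in day 5 replicates 1 to 4 and at 148, 407, 128 and 148 CPM in day 10 replicates 1 to 4, so replicate 2 alone was outside the day 5 range. Those that passed were Runx1 (1.30 ± 0.34), Vim (1.19 ± 0.32), Des (0.76 ± 0.23), S100a4 (1.36 ± 0.43, adjusted p = 0.0605 with the block) and Fap (1.29 ± 0.41, named after its value was seen). Des, the muscle filament desmin, was above day 5 in all 4 libraries. Leukocytes also express Runx1, Vim and S100a4, and leukocyte genes were high in the same libraries, whose part was not tested. Of the TGF-beta pathway 6 of 20 were higher (median 0.32, and 0.20 in the reduced set), and 7, 3, 3 and 7 passed without day 10 replicates 1 to 4 in turn (3, 4, 4 and 7 without day 5 replicates 1 to 4). Tgfb1, its main ligand, stood at 44.1, 43.8, 48 and 50.1 CPM in day 5 replicates 1 to 4 and at 58.6, 117, 90.9 and 40.4 CPM in day 10 replicates 1 to 4 (0.73 ± 0.20, adjusted p = 0.0239, and 0.08 in the reduced set). Ltbp2, a protein of the latent TGF-beta binding family, rose without overlap. It was at 18 to 21.4 CPM at day 5 and 97, 114, 88.9 and 37.3 CPM at day 10 (2.11 ± 0.36, and 1.77 in the reduced set). Inhba, the activin A subunit, rose by 3.17 ± 0.61 and did not overlap day 5. Tgfbi (2.18 ± 0.47) was at 100.1, 812, 842 and 92.9 CPM, with replicate 1 inside and replicate 4 below the day 5 range (98.7 to 106 CPM).

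Of the metalloproteinases, which cut matrix, and their inhibitors 12 of 22 were higher (median 1.95, and 0.35 in the reduced set), and 13, 7, 10 and 15 passed without day 10 replicates 1 to 4 in turn. Mmp7, matrilysin of injured tubules, stood at 8.08, 19.2, 18 and 12.1 CPM in day 5 replicates 1 to 4 and at 59.3, 677, 312 and 30.5 CPM in day 10 replicates 1 to 4. It rose by 4.24 ± 0.71 (adjusted p = 0.00425), with all 4 day 10 libraries above day 5. Mmp3, stromelysin 1, rose by 3.67 ± 0.59 and Mmp12, macrophage elastase, by 2.34 ± 0.38, and these stood at 1.81 and 1.56 in the reduced set. Mmp10 was not tested, at 0.474, 55.9, 2.76 and 0.264 CPM in day 10 replicates 1 to 4, nearly all in replicate 2. Of plasminogen and coagulation genes 6 of 18 were higher and 1 lower, Cpb2 (-1.70 ± 0.48, named after its value was seen), a carboxypeptidase that slows clot breakdown (median 0.53, and 0.14 in the reduced set). The 1 lower in 18 lies near the 2.93% of all genes called lower. As higher 6, 3, 4 and 8 passed without day 10 replicates 1 to 4 in turn, and as lower 1, 0, 0 and 2 passed without day 10 replicates 1 to 4 in turn (0, 0, 0 and 1 without day 5 replicates 1 to 4). The clotting factor F10 (5.93 ± 0.98) was at 2.32, 73, 174 and 2.33 CPM and F7 (4.77 ± 0.90) at 1.04, 17.3, 42 and 1.11 CPM, both highest in replicate 3. Plaur, the urokinase receptor, was at 19.4, 225, 113 and 19.4 CPM against 19.9 to 26.9 CPM at day 5 (2.09 ± 0.50, and -0.21 in the reduced set). The transglutaminase gene F13a1 was likewise high in replicates 2 and 3 alone (3.91 ± 0.80, and -0.29 in the reduced set). Serpinb2 was not tested, at 0, 55.2, 4.99 and 0 CPM at day 10 and 0 counts in all 4 day 5 libraries.

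The mean of the proximal tubule list lay below the day 5 range in day 10 replicates 1 to 3 and inside it in replicate 4. It was 8.99, 8.58, 7.72 and 9.53 log2 CPM in day 5 replicates 1 to 4 and 7.53, 3.93, 5.46 and 9.19 in day 10 replicates 1 to 4, and WT day 0 ran from 10.5 to 10.8. Replicate 2 was the lowest library in 21 of 24 of its genes, against 25% of all genes. The spread between libraries was wide, and 1 of 24 passed, Amn (-0.89 ± 0.27, adjusted p = 0.0356), a partner of the endocytic receptor cubilin (median -1.06, and -0.28 in the reduced set). A count of 1 in 24 lies near the 2.93% of all genes called lower. With the replicate block 5 of the list passed as lower, and 1, 0, 0 and 23 passed without day 10 replicates 1 to 4 in turn (0, 0, 0 and 0 without day 5 replicates 1 to 4). The endocytic receptor Lrp2 was at 1088 CPM in day 5 replicate 4 and 1044 CPM in day 10 replicate 4, and at 69.2 CPM in day 10 replicate 2. Organic solute transporters held 0 of 22 past the threshold (median -0.90, and -0.22 in the reduced set). As lower 3 passed with the block, and 0, 0, 0 and 14 passed without day 10 replicates 1 to 4 in turn. Loop, distal tubule and collecting duct genes held 1 of 24 higher and 0 lower (median -0.70, and -0.07 in the reduced set). As lower 2 passed with the block, and 1, 0, 0 and 19 passed without day 10 replicates 1 to 4 in turn (0, 0, 0 and 1 without day 5 replicates 1 to 4). A count of 1 in 24 is below the 7.86% of all genes called higher. That gene was Trpm6, a magnesium channel, whose change has the opposite sign to the list's median. It was at 13.9 to 22.3 CPM at day 5 and 41.2, 43.7, 27.8 and 27.6 CPM at day 10 (0.86 ± 0.20, and 0.82 in the reduced set), and its call was lost without replicate 2. Keratins, uroplakins and small proline-rich genes of the urinary lining held 0 of 15 (median -1.17, and -0.53 in the reduced set), and replicate 3 was the lowest library in 13 of them. As lower 1, 0, 0 and 7 passed without day 10 replicates 1 to 4 in turn. Leaving out day 10 replicate 4 thus raised the count of lower genes in each of these 4 lists. Over all 15080 genes it raised that count from 442 to 2301.

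Of the tubular injury genes 3 of 19 were higher (median 0.34, and 0.17 in the reduced set), and 4, 0, 0 and 5 passed without day 10 replicates 1 to 4 in turn (1, 1, 3 and 3 without day 5 replicates 1 to 4). Lcn2, a lipocalin that injured tubules and neutrophils make, stood at 249, 403, 409 and 275 CPM in day 5 replicates 1 to 4 and at 522, 3018, 2959 and 313 CPM in day 10 replicates 1 to 4 (2.35 ± 0.60, and 0.31 in the reduced set). Cd44, a hyaluronan receptor of injured tubules and leukocytes, and Anxa1, an annexin that limits inflammation, differed by 1.37 ± 0.34 and 1.25 ± 0.35, and both overlapped day 5 in replicate 4. Neutrophil genes were highest in the same 2 libraries as these 3 genes, and their part in the result was not tested. The 12 podocyte genes had a median of 0.26, and 0.09 in the reduced set, with 1 higher and 1 lower. Of all genes 7.86% were called higher and 2.93% lower, so 1 in 12 higher lies near the first share. The lower one was Tcf21 (-1.07 ± 0.32), also a gene of kidney fibroblasts. As higher 1, 0, 0 and 1 passed without day 10 replicates 1 to 4 in turn, and as lower 1, 0, 0 and 2 passed without day 10 replicates 1 to 4 in turn (1, 0, 0 and 1 without day 5 replicates 1 to 4). Endothelial genes held 2 of 19 higher, the adhesion molecules P-selectin (Selp, 4.59 ± 0.91) and E-selectin (Sele, 3.90 ± 0.90), which slow leukocytes on inflamed vessels (median 0.27, and -0.23 in the reduced set). A share of 2 in 19 lies near the 7.86% of all genes called higher, and 2, 1, 2 and 3 passed without day 10 replicates 1 to 4 in turn. Selp was at 2.27, 85.4, 29.4 and 0.793 CPM in day 10 replicates 1 to 4.

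Fatty acid oxidation and respiratory chain genes that passed were all lower. Of the former 8 of 25 were lower (median -0.75, and -0.25 in the reduced set) and 13 with the replicate block, while 9, 1, 0 and 25 passed without day 10 replicates 1 to 4 in turn (5, 1, 7 and 6 without day 5 replicates 1 to 4). Over all genes 2.93% were called lower, and 2301 of 15080 without day 10 replicate 4. Cpt2, which hands fatty acids into the mitochondrial matrix, stood at 138, 129.5, 114 and 184 CPM in day 5 replicates 1 to 4 and at 61.7, 30, 31.2 and 118 CPM in day 10 replicates 1 to 4. It fell by 1.23 ± 0.30 on the log2 scale (adjusted p = 0.0138), and the value was -0.67 in the reduced set. Replicate 4 lay inside the day 5 range, as it did for Etfb (-1.11 ± 0.28), the electron carrier subunit, and Ech1 (-0.99 ± 0.27), a dienoyl-CoA isomerase. The carnitine carrier Slc25a20 changed by -0.56 ± 0.14. Respiratory chain subunits held 5 of 27 lower (median -0.54, and -0.21 in the reduced set), and 10 with the block, while 4, 0, 0 and 26 passed without day 10 replicates 1 to 4 in turn (2, 0, 1 and 3 without day 5 replicates 1 to 4). Cox5a, of cytochrome c oxidase, was at 134, 134, 135 and 219.6 CPM in day 10 replicates 1 to 4 against 209 to 246 CPM at day 5 (-0.57 ± 0.16). Cox5b (-0.79 ± 0.21), Ndufv2 of complex I (-0.68 ± 0.18) and Sdhc of complex II (-0.66 ± 0.19) were likewise below day 5 in replicates 1 to 3. The fifth was Ndufs3 of complex I (-0.60 ± 0.19, named after its value was seen). Proximal tubule genes were lowest in replicates 2 and 3, and their part in these falls was not tested. All 27 respiratory genes and 24 of 25 fatty acid oxidation genes had negative values in the reduced set.

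Large falls without overlap were ranked among genes past the threshold with mean log2 CPM of 1 or more. Acot2, a mitochondrial acyl-CoA thioesterase, was at 24.9 to 43.7 CPM at day 5 and 15.5, 6.38, 9.79 and 19.2 CPM at day 10 (-1.43 ± 0.23). The lipid droplet proteins Plin5 (-1.5 ± 0.32), Plin4 (-1.36 ± 0.29) and Cideb (-1.5 ± 0.39) fell without overlap, as did the apolipoprotein Apoc3 (-2.11 ± 0.56) and Slc51a (-1.67 ± 0.43), a subunit of a bile acid and steroid exporter. Plin4 was at 3.79, 3.34, 4.62 and 5.5 CPM in day 10 replicates 1 to 4, and the value in the reduced set was -1.27. Ccdc3 (-1.17 ± 0.34) was at 2.84, 2.73, 2.82 and 3.02 CPM, against 5.64 to 7.91 CPM, and its 4 day 10 libraries were nearly level. Guca2b (uroguanylin, a salt-handling peptide, -1.66 ± 0.48), Uroc1 (urocanase of histidine breakdown, -1.57 ± 0.43), Nlrp6 (-1.43 ± 0.45), Asb11 (-1.66 ± 0.44) and Tmem252 (-1.16 ± 0.25) also fell without overlap. Of apolipoproteins and lipid transport genes 3 of 23 were higher and 1 lower (median 0.24, and -0.02 in the reduced set). Both counts lie near the shares over all genes, 7.86% higher and 2.93% lower. As higher 5, 1, 1 and 5 passed without day 10 replicates 1 to 4 in turn, and as lower 1, 1, 0 and 9 passed without day 10 replicates 1 to 4 in turn (1, 0, 0 and 1 without day 5 replicates 1 to 4). Apoc2 (4.51 ± 0.90) rose while Apoc3 fell, and stood at 1.09, 59.7, 60.2 and 1.22 CPM in day 10 replicates 1 to 4. The endocytic receptor Lrp1 (1.20 ± 0.29) and the cholesterol exporter Abca1 (0.94 ± 0.29, adjusted p = 0.0549 with the block) rose too.

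**Figure D4:**
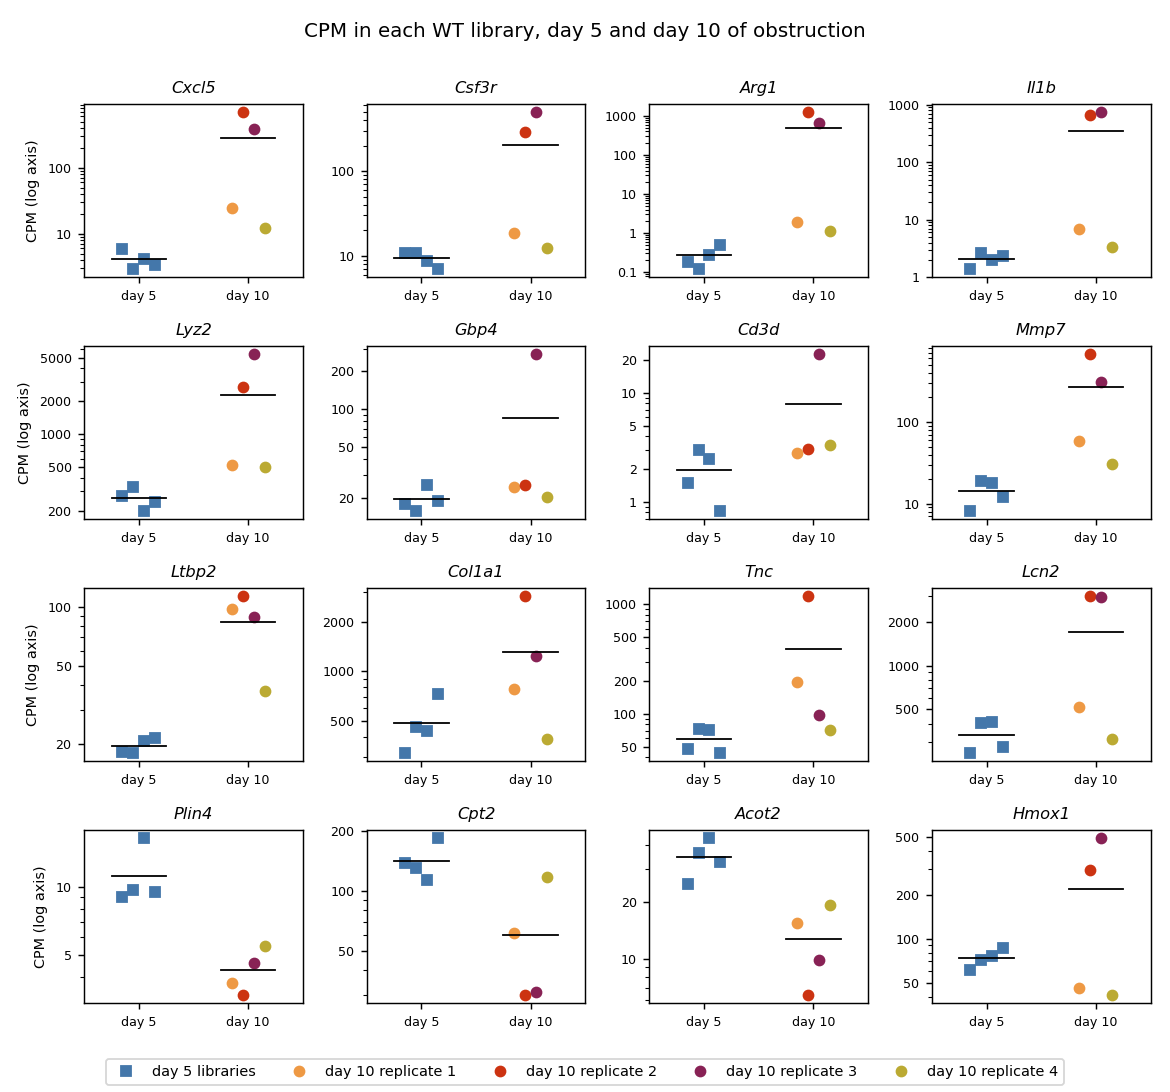
CPM of 16 genes on log axes in each WT library, blue squares for the 4 day 5 libraries and coloured circles for day 10 replicates 1 to 4; horizontal lines are group means. Cxcl5, Lyz2, Mmp7, Ltbp2, Plin4 and Acot2 do not overlap between the days, while Gbp4 and Cd3d are high in replicate 3 alone and Hmox1 moves down in replicates 1 and 4 and up in 2 and 3.

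Of the antioxidant and metallothionein genes 6 of 23 were lower and 2 higher (median -0.63, and -0.34 in the reduced set). As lower 6, 1, 1 and 15 passed without day 10 replicates 1 to 4 in turn (5, 3, 4 and 4 without day 5 replicates 1 to 4), and as higher 3, 1, 1 and 3 passed without day 10 replicates 1 to 4 in turn (1, 1, 1 and 1 without day 5 replicates 1 to 4). Gsta2, a glutathione transferase, was at 117 to 173 CPM at day 5 and 48.9, 5.26, 9.67 and 63.6 CPM at day 10 (-2.21 ± 0.61, and -1.40 in the reduced set). Gclc, the rate-limiting enzyme of glutathione synthesis (-1.24 ± 0.33), Srxn1 (-0.63 ± 0.15) and Gstp1 (-0.54 ± 0.14) were below day 5 in all 4 libraries. Slc7a11, the cystine importer that feeds the same pathway, rose by 6.23 ± 1.08, at 1.28, 84.1, 159.5 and 1.59 CPM. Hmox1, heme oxygenase 1, passed as higher (1.57 ± 0.49, adjusted p = 0.0448, and 0.0852 with the block), and stood at 61, 71.1, 76.6 and 87 CPM in day 5 replicates 1 to 4 and at 45.9, 297, 492 and 40.9 CPM in day 10 replicates 1 to 4. Replicates 1 and 4 were below every day 5 library and replicates 2 and 3 above, and the value in the reduced set was -0.78 (unadjusted p = 0.000748, adjusted p = 0.332).

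Hmox1 led a set of genes called higher whose sign turned in the reduced set, listed by the size of the opposite value. G0s2, an inhibitor of fat breakdown (1.42 ± 0.44), went to -0.50, Slfn1 (3.11 ± 0.72) to -0.45, and Atp8b4 (1.45 ± 0.47) to -0.43. Lrg1, an acute phase glycoprotein of neutrophils and vessels (1.80 ± 0.51), went to -0.43, and the transcription factor Nfil3 (1.43 ± 0.46) to -0.37. Slfn1 stood at 3.55, 76.8, 114 and 4.97 CPM in day 10 replicates 1 to 4, against 5.37 to 6.12 CPM at day 5. In Hmox1, Slfn1 and Nfil3 replicates 1 and 4 both lay below every day 5 library. With the replicate block G0s2, Atp8b4 and Nfil3 did not pass (adjusted p = 0.0777, 0.0815 and 0.0716).

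Of the glycolysis and hypoxia response genes 7 of 25 were higher and 1 lower (median 0.28, and -0.10 in the reduced set). The 1 lower in 25 lies near the 2.93% of all genes called lower. As higher 9, 3, 2 and 9 passed without day 10 replicates 1 to 4 in turn (5, 4, 5 and 5 without day 5 replicates 1 to 4), and as lower 1, 1, 1 and 3 passed without day 10 replicates 1 to 4 in turn. Slc16a3, the lactate exporter, was at 7.44, 184, 166 and 4.12 CPM (4.00 ± 0.84), Hk2, hexokinase 2, at 22.8, 117, 91.2 and 10.1 CPM (2.43 ± 0.52), and the oxygen sensor Egln3 at 20.7, 61.8, 71 and 19.4 CPM (1.29 ± 0.30). In these 3 genes replicate 4 lay inside the day 5 range. Ndrg1, a hypoxia-responsive gene that tubules express strongly, fell without overlap. It was at 1908 to 3129 CPM at day 5 and 1296, 715, 826 and 1391 CPM at day 10 (-1.10 ± 0.24, and -0.77 in the reduced set). Eno1 was listed at 0 in all 8 libraries, as were the 6 globin genes listed, so the erythroid list rests on 4 genes, of which 0 passed (median -0.55, and -0.19 in the reduced set).

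Of the cell death genes 10 of 22 were higher (median 0.82, and 0.10 in the reduced set), and 14, 3, 1 and 17 passed without day 10 replicates 1 to 4 in turn (5, 5, 9 and 6 without day 5 replicates 1 to 4). Replicate 3 was the highest library in 17 of them. Nlrp3, the inflammasome sensor, was at 4.74, 73.9, 104 and 5.55 CPM against 4.25 to 4.81 CPM at day 5 (3.39 ± 0.65), Casp4 rose by 1.64 ± 0.40, and the survival factor Bcl2a1a and the death factor Bcl2l11 rose by 2.74 ± 0.60 and 1.20 ± 0.28. Bcl2a1a has near-identical copies, so its value is uncertain. Lysosome genes held 8 of 21 higher and 1 lower, Cd63 (-0.51 ± 0.16, adjusted p = 0.0458, and 0.0544 with the block, named after its value was seen), with a median of 0.38, and 0.02 in the reduced set. The 1 lower in 21 lies near the 2.93% of all genes called lower. As higher 10, 2, 1 and 9 passed without day 10 replicates 1 to 4 in turn (4, 4, 4 and 6 without day 5 replicates 1 to 4), and as lower 1, 0, 0 and 2 passed without day 10 replicates 1 to 4 in turn (0, 0, 0 and 1 without day 5 replicates 1 to 4). Ctsc, which activates granule proteases, rose by 1.96 ± 0.40 and Ctss, a cathepsin of antigen-presenting cells, by 1.76 ± 0.39. Laptm5 (1.26 ± 0.30) and Hexa (0.90 ± 0.22) were, like both cathepsins, above day 5 in all 4 libraries. Of the immediate early genes 3 of 19 were higher, Dusp5 (1.81 ± 0.48), Ier3 (1.63 ± 0.47) and Egr3 (1.57 ± 0.49), with a list median of 0.63, and -0.04 in the reduced set. Of the list 5, 0, 0 and 7 passed without day 10 replicates 1 to 4 in turn (0, 1, 0 and 1 without day 5 replicates 1 to 4). Cell cycle genes held 1 of 24 higher, E2f1 (0.70 ± 0.22, adjusted p = 0.0532 with the block), with a median of 0.46, and -0.29 in the reduced set, and 2, 0, 0 and 10 passed without day 10 replicates 1 to 4 in turn (0, 0, 0 and 1 without day 5 replicates 1 to 4). A count of 1 in 24 is below the 7.86% of all genes called higher. In the cell cycle list replicate 2 was the highest library in 17 genes and replicate 4 the lowest in 17.

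Besides those described above, lists with 1 gene or none past the threshold included circadian clock genes (1 of 17, Arntl at 1.15 ± 0.32, median -0.36), glucocorticoid-responsive genes (1 of 13, Lcn2, median -0.56), stress and heat shock genes (0 of 17, median 0.05), and nuclear-retained RNAs and splicing genes (0 of 16, median 0.07). A share of 1 in 13 or 1 in 17 lies near the 7.86% of all genes called higher. Without day 10 replicate 4, 7 circadian, 5 glucocorticoid-responsive, 2 stress and 1 nuclear-retained genes passed as lower. In that fit 2301 of all 15080 genes were called lower, so 2 of 17 and 1 of 16 are no excess. The call of Arntl was lost without any 1 of day 5 replicates 1 to 3 or day 10 replicates 2 and 3, and that of Lcn2 without day 5 replicate 1 or day 10 replicate 2 or 3. In the reduced set their medians were -0.04, -0.41, -0.16 and -0.06. Adipocyte, muscle and adrenal genes held 0 of 3 (median 0.80, and 0.03 in the reduced set) and sex-linked genes 0 of 4 (median -0.17, and -0.04 in the reduced set). The glucocorticoid-responsive list was lowest in day 10 replicate 1, at 5.73, 6.62, 6.42 and 7.09 log2 CPM in day 10 replicates 1 to 4 against 6.81 to 7.17 at day 5. Serpina1a, an alpha-1-antitrypsin gene with near-identical copies and so an uncertain count, did not pass (-1.24 ± 0.71, adjusted p = 0.255). It stood at 17, 0.506, 0.54 and 28.1 CPM in day 10 replicates 1 to 4 and at 20.4 to 35.7 CPM at day 5.

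A few rises were large without replicates 2 and 3 as well. Among non-overlapping genes called higher, with mean log2 CPM of 1 or more, the 8 largest values in the reduced set were those of Lyz1, Arg1, Cxcl3, Cxcl5, Olr1, Cnr1, Mmp3 and Inhba, from 2.54 down to 1.77. Non-overlap already places replicates 1 and 4 above day 5, so a positive sign there follows largely from the choice of genes. In day 10 replicates 1 and 4 Arg1 rests on 40 and 21 counts and Cxcl3 on 32 and 18. Cnr1, the cannabinoid receptor 1, stood at 2.08, 1.18, 2.69 and 1.23 CPM in day 5 replicates 1 to 4 and at 4.74, 3.49, 3.78 and 8.2 CPM in day 10 replicates 1 to 4 (1.5 ± 0.42, and 1.84 in the reduced set), and its highest library was replicate 4. Olr1, the receptor for oxidised lipoprotein, was at 3.17, 16.2, 26.2 and 0.952 CPM against 0.416 to 0.636 CPM (4.38 ± 0.72, and 1.89 in the reduced set). The adjusted p of these 8 genes in the reduced set was 0.0626 to 0.742, so none passed there. The niacin and ketone receptor Hcar2, which neutrophils and macrophages carry, was also above day 5 in all 4 libraries, at 1.42, 228, 248 and 2.12 CPM (6.86 ± 1.14, and 0.76 in the reduced set).

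Whether the change from day 5 to day 10 was particular to WT was tested as the difference between genotypes, whose contrasts share no libraries. No gene passed with edgeR (0 of 15080, or 0%, and 1277 or 8.47% at an unadjusted p under 0.05), and DESeq2 called 40. Leaving out WT day 10 replicate 1 gave 168 genes, replicate 4 gave 225, and KO day 5 replicate 1 gave 1. For Arg1 the WT change exceeded the KO change by 11.36 ± 2.30 (adjusted p = 0.418), for Irg1 by 9.03 ± 2.49, for Cxcl3 by 8.19 ± 2.79 and for Clec4e by 7.82 ± 2.55, none past the threshold. In KO these 4 genes stood at -0.66 ± 1.6, 0.48 ± 1.67, 0.93 ± 1.79 and 0.67 ± 1.75. The difference was 0.93 ± 0.59 for Col1a1, 1.10 ± 0.62 for Col3a1, 0.70 ± 0.53 for Fn1, 0.52 ± 0.28 for Tgfb1, 0.72 ± 0.51 for Acta2, -1.82 ± 1.27 for Serpina1a and -0.12 ± 0.37 for Pld4 (adjusted p = 0.607 to 0.932). In KO itself 3 genes (0.0199%) passed between the days.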

How the data were processed

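Total RNA was extracted from kidney with TRIzol and 1 ug was made into stranded TruSeq mRNA libraries for a NextSeq500, per the labels' protocols. The submitters' processing notes name bcl2fastq 2.16, STAR 2.5, Cufflinks and the mm9 genome, and the counting tool, annotation and strand setting are not given in the sources used here. The authors deposited gene counts for 23955 symbols and, in a second table, FPKM for 23953. Members and lists were chosen with earlier results of these data known. The 24 libraries entered 1 edgeR 4.0.16 model of 6 group means (filterByExpr, TMM, robust quasi-likelihood test, 18 residual degrees of freedom), with p-values adjusted by Benjamini-Hochberg over 15080 genes and a threshold of 0.05. CPM use TMM-scaled library sizes, and log2 fold changes are given ± SE from the F statistic. Alternatives used DESeq2 1.42.0, limma 3.58.1 on log2(FPKM + 1), other filters and left-out libraries. The test was checked on simulated counts, in which the WT day 10 libraries shared a single group mean. That check thus does not cover the split of day 10 replicates 2 and 3 from the others. Genes named in the text were Pld4 and 7 fixed genes, the 10 largest non-overlapping rises and falls, up to 8 each way ranked in the reduced set, up to 6 of opposite sign there, up to 4 of lowest adjusted p per list, and those said to be named after their values were seen. A few genes that these rules name are not reported here. Deviations of same-numbered day 5 and day 10 WT libraries from their group means correlated weakly (r = 0.228, 0.103, 0.180 and 0.361 for numbers 1 to 4). On this ground they were treated as paired in the replicate block, although the labels do not say what a number shares. The ground is weak, since WT pairs of unlike number ran from -0.469 to 0.239. Day 10 replicate 2 correlated more with day 5 replicate 3 (0.239) than with day 5 replicate 2. The block was shared by all 6 groups, and in KO the same pairs gave r = -0.363, -0.333, 0.116 and 0.0678, so there the numbers did not pair the libraries. Promoters came from RefSeq (GRCm38.p6), not from mm9.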

Additional observations from a re-analysis of the deposited data

Results flagged for a closer look

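Among 262 groups of 4 libraries tested for 1 library far from the other 3 (2 groups for each named gene), 18 had one. The cutoff gives about 1 in 20 for independent groups of normally distributed values. Most of these genes were picked by their values in the same libraries, so 18 cannot be compared with chance. Of the 18 outlying values, 7 were high values of day 10 replicate 2. Acta2 was at 406.8 CPM there and at most 148 CPM in the other 3 day 10 libraries, Inhba at 22.78 (next 5.46), Ppbp at 110.5 (next 8.72), Col5a2 at 587.1 (next 187), Col5a3 at 203.5 (next 36.7), Fbln2 at 335.3 (next 54.2) and Tnc at 1195 CPM (next 197).

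Day 10 replicate 3 gave 6, of which 5 were T cell genes or interferon gamma induced GTPases. Gbp4 was at 272.7 CPM (next 25), Gbp5 at 268.8 (next 21.2), Tgtp2 at 87.08 (next 8.91), Gm4951 at 49.97 (next 8.86), Cd3d at 22.7 (next 3.33) and Tnf at 78.38 CPM (next 14.0).

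Day 10 replicate 4 stood apart for Cox5a, at 219.6 CPM against at most 135.1 CPM in the other day 10 libraries. At day 5, replicate 1 was high for Nlrp6 (111.5 CPM, next 70.2), replicate 3 for Plin4 (16.3 CPM, next 9.67) and replicate 4 for Ndrg1 (3129 CPM, next 2037), and replicate 4 was low for Osm (0.1818 CPM, next 0.475). Day 10 replicate 1 gave none.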

How the results depend on the processing

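The count of 1628 genes was 0 with the 2 groups alone, 0 with the replicate block and the 2 groups alone, and 0 without day 10 replicates 2 and 3, and ran from 359 to 4489 when single libraries were left out. Other normalization, filters, DESeq2 and limma on FPKM gave 1158 to 2225 genes. With the block shared by all 6 groups 1847 genes passed, 1476 of them among the 1628, and 13 of 131 named genes lost their call. These 13, and Cd63 and Col5a1, are given in the report with the block's adjusted p, and the block changed no other call among the genes named. The count for the genotype difference was 0 in the model used and 40 with DESeq2, and ran from 0 to 225 when single libraries were left out. Of the named genes, 56 lost their call without day 10 replicate 2, 67 without replicate 3 and 127, all that had one, without both. All 127 also lost it in the fit of the 2 groups alone. On log2(FPKM + 1), 32 of the 107 that had a call and could be tested lost it. Signs turned without replicates 2 and 3 for Hmox1 (-0.78), G0s2 (-0.50), Slfn1 (-0.45), Atp8b4 (-0.43), Lrg1 (-0.43), Nfil3 (-0.37), F13a1 (-0.29), Tgtp2 (-0.23), Apoc2 (-0.22), Plaur (-0.21), Tgfbi (-0.10), Gbp5 (-0.073), Col5a3 (-0.048) and Col3a1 (-0.0097). Leaving out single day 10 libraries, Acta2 ran from -0.066 to 0.66 and Gbp5 from -0.076 to 2.36, lowest without replicates 2 and 3 respectively. The fits with libraries left out also hold fewer samples, and the cause of these changes was not tested. Depth limits genes such as Arg1 and Il12b, with 20 and 9 counts over the 4 day 5 libraries.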
